A study of Mus musculus with 12 samples.

Results

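The comparison set 2 of the series' 12 samples side by side, both built on the same TruSeq background from 100 ng of RNA and both given reads of the same listed transcripts. They differ in the library from which the added reads were drawn. In the first, T80_TS, those reads came from 80M reads (M, 1e6 reads) of a TruSeq library made from 100 ng of total RNA. In the second, T80_NU2, they came from 80M reads of a NuGENv2 library made from 2 ng. RNA came from D1, a cultured mouse cell line known in the field as a dendritic cell line. Per the labels, both samples also received synthetic reads with even coverage of further transcripts. The study asks how library preparation affects the detection of alternative splicing, so the question here is how many reads of a transcript each kit delivers, and over which exons. Kit and RNA input changed together and cannot be told apart.

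Each sample holds 5 replicate columns, of which 4 could be used because the fifth was deposited in another unit. Of 1744 rows 926 were distinct, and 1 of these was not finite, which left 925 exon bins in 58 gene models. An exon bin is a stretch of exon that no annotated exon boundary divides, and its name (E001 onward) counts along the chromosome. Reads in all bins ranged from 312347 to 492109 per column with TruSeq reads and from 261042 to 440804 with NuGENv2 reads. Cell identity could not be checked in the tables, since 2 of 14 marker genes looked for, Mgl2 and Sirpa, are among the 58 models and both were given added reads. TruSeq takes poly(A) RNA, fragments it and primes cDNA at random positions. The NuGEN chemistry is known for amplifying cDNA from very small amounts of RNA with RNA and DNA chimeric primers. A read is assigned to a transcript by the exons it covers, so short exons and exons used by few isoforms are the hardest to measure.

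The difference between the tables was the same whole number of reads in all 4 columns for 925 of 925 bins. It was 0 in 728 bins and not 0 in 197 (21.3% of 925). With TruSeq reads 126 bins held more reads (13.6%), by 59975 reads in sum, and with NuGENv2 reads 71 bins held more (7.68%), by 8670. The net difference was 51305 reads, and a read that spans several bins counts in each. The 4 columns therefore repeat 1 set of added reads per kit over 4 backgrounds. They do not replicate the kit, and every p-value below measures only the spread between backgrounds.

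The 18 transcripts listed for kit reads fall in 16 gene models with 229 bins. Of these bins 115 held more TruSeq reads, 71 more NuGENv2 reads and 43 equal numbers. In sums over the model, 13 of the 16 had more TruSeq reads, Fxyd5 and Ppp2r3a had more NuGENv2 reads, and Myadm had the same. Cyth4, which is listed for the 1000 ng background and not for this one, also differed, in 11 bins. No bin of the other 41 models differed. Mgl2 alone held 67.7% of the net difference and Sirpa 24.7%. These are shares of a net in which bins of opposite sign cancel. Of the reads by which TruSeq exceeded NuGENv2 in single bins, Mgl2 held 59.1%. Fxyd5 held 84.7% of the reads by which NuGENv2 exceeded TruSeq.

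The bins that carry the contrast are shown here from the reference genome NCBIM37 (mm9), 5′ to 3′ on the strand of the gene, with the bin in capitals and 10 flanking bases in lower case. In the 3 bins of Fxyd5 the NuGENv2 excess was largest. Bins E010 and E011 of Mgl2 meet without a gap, and Cyth4 E012 is the bin with the largest difference in the model that was not listed.
Fxyd5 E007, chr7:31822840-31822947, minus strand: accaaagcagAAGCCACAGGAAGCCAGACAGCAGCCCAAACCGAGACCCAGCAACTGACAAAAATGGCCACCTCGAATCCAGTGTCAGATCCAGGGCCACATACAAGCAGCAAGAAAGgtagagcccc
Fxyd5 E006, chr7:31821455-31821535, minus strand: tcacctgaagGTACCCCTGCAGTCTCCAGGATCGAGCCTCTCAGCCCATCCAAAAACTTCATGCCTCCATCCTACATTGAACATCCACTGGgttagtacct
Fxyd5 E004, chr7:31820228-31820302, minus strand: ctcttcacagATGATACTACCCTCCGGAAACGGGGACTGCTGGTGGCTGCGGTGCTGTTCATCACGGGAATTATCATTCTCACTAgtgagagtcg
Mgl2 E010, chr11:69950172-69950278, plus strand: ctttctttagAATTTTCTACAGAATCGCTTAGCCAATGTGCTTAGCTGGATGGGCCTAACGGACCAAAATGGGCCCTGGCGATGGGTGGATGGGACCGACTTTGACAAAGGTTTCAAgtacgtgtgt
Mgl2 E011, chr11:69950279-69950422, plus strand: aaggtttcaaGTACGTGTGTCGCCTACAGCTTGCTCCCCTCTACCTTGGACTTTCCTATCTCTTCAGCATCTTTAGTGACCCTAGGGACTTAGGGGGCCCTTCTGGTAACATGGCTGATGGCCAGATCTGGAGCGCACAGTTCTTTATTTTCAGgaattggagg
Cyth4 E012, chr15:78441879-78442027, plus strand: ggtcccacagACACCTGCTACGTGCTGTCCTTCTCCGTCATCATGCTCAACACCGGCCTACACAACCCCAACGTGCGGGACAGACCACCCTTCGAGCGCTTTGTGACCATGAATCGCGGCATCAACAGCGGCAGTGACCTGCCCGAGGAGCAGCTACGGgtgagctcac
The 3 bins of Fxyd5 are coding stretches of 108, 81 and 75 bases, each with ag before it and gt after it. E006 adjoins no other matched bin. E007 meets the coding bin E008, of 3 bases, on its 5′ side, and the ag before E007 lies in E008. E004 meets the partly coding bin E003 on its 3′ side, and the gt after E004 opens E003. GC content is 53.7% in E007, 53.1% in E006 and 52.0% in E004. Mgl2 E010 is coding in 3 of 3 annotated transcripts that span it and ends at a gt. That gt opens E011, which is coding in 2 of those transcripts and intronic in 1. GC content is 49.5% in E010, 51.4% in E011 and 60.4% in Cyth4 E012, so the Fxyd5 bins lie within the range of the 3 bins with more TruSeq reads.

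Model totals were tested with limma on log2(scaled reads + 1). Of 58 models, 12 (20.7%) were higher with TruSeq reads and 1 (1.72%) with NuGENv2 reads, at an adjusted p under 0.05. The 16 listed models account for 11 of the 12 and for the 1, Cyth4 for the remaining one. Their median log2 fold change was 0.48, against -0.08 over all 58 models. That shift of the median arises in scaling, since models with identical reads in both tables received different size factors. The columns of the 2 kits did not overlap in reads for 5 models (8.62% of 58) and in scaled reads for 14 (24.1%). For each of those 14 an exact two-sided permutation test over the 8 columns gave 0.0286, the smallest p it allows. Columns that do not overlap fix this value in advance, so the test adds nothing to the count of 14.

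**Figure D1:**
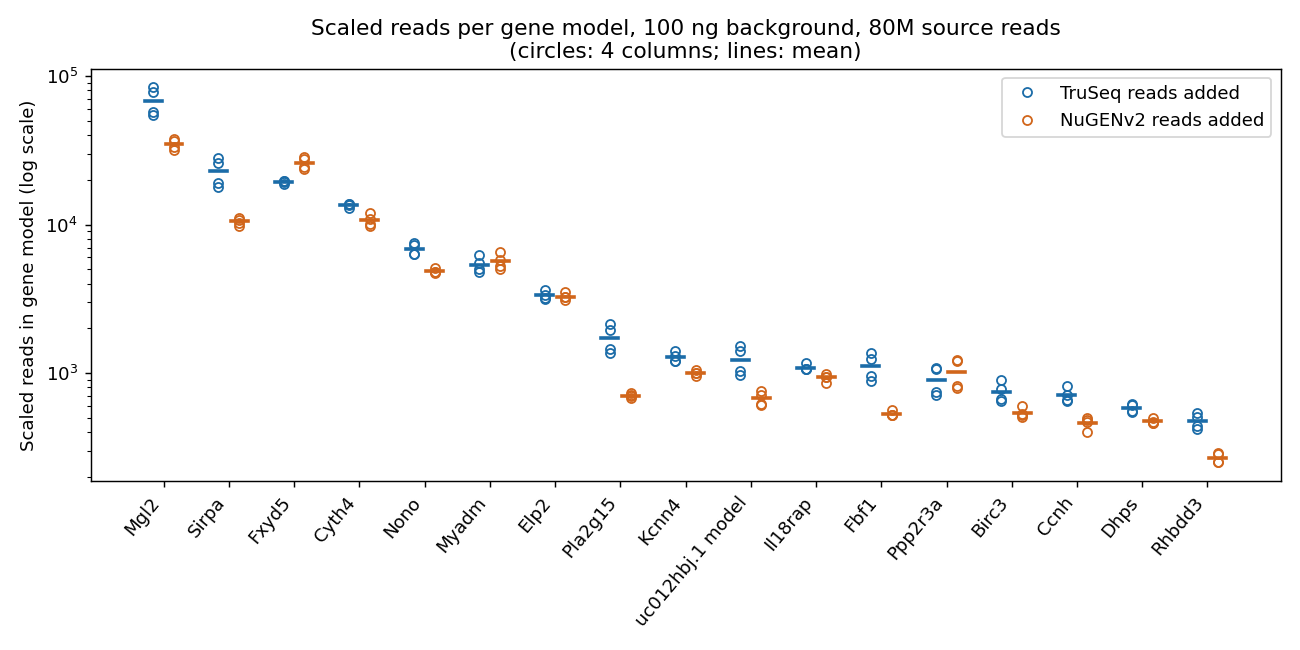
Scaled reads (log axis) of the 17 gene models that are listed or differ, with 4 circles per kit for the columns and a line for their mean. Mgl2, Sirpa and Pla2g15 stand higher with TruSeq reads, Fxyd5 stands higher with NuGENv2 reads, and Myadm, Elp2 and Ppp2r3a overlap.

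Column numbers pair the samples, as same-numbered columns share their background. With the replicate block, 13 models were higher with TruSeq reads and 44 with NuGENv2 reads, since the block removes the background spread and leaves the scaling shift of the identical models. With the block and no scaling the counts were 14 and 2, the 2 being Fxyd5 and Ppp2r3a. With no scaling and no block no model passed limma's threshold, against 6 higher with TruSeq reads and 0 with NuGENv2 reads at an unadjusted p under 0.05. Without column 1, 4 models remained (Fbf1, Pla2g15, Rhbdd3 and Sirpa, adjusted p = 0.0321 in limma for each), and Fxyd5 gave 0.0922. Scaled to total reads in bins, 5 models remained, all higher with TruSeq reads (Fbf1, Mgl2, Pla2g15, Sirpa and the model of transcript uc012hbj.1, which has no gene name in the files). Calls were lost there for Birc3, Ccnh, Cyth4, Dhps, Fxyd5, Kcnn4, Nono and Rhbdd3, with adjusted p from 0.086 in Rhbdd3 to 0.743 in Cyth4, Dhps and Kcnn4.

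Of the receptors and lectins at the cell surface, Mgl2 and Sirpa differed by the most reads of all 58 models, and Il18rap by far fewer. Mgl2, a C-type lectin that binds galactose and N-acetylgalactosamine on dendritic cells and macrophages, lies on chromosome 11 from 69943831 to 69951052. Its 13 bins held 62382, 60447, 82204 and 74721 reads in the 4 columns with TruSeq reads and 27649, 25714, 47471 and 39988 with NuGENv2 reads. Every TruSeq column stood above every NuGENv2 column, by 34733 reads in each pair. The log2 fold change of the total was 0.95 (SE 0.162, adjusted p = 0.00559 in limma), and 0.05 was the adjusted p without column 1, just past the threshold. Reads shared with the neighbouring paralog Clec10a would be uncertain, since how multiply mapped reads were handled was not stated.

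Within Mgl2 the kits parted at both ends and met in the middle. Bins E004 to E009, all coding, differed by 338, 110, -36, -80, -61 and -122 reads (TruSeq minus NuGENv2), and none of the 6 passed limma's threshold. E002 differed by 2526 and E010 by 4069. The 3′ bin E012, of 622 bases, differed by 20907, which is 57.8% of all reads that differed in the model. E011 held 7672, 7546, 8911 and 8482 TruSeq reads against 1551, 1425, 2790 and 2361 NuGENv2 reads. This bin, intronic in 1 annotated transcript, had a log2 fold change of 1.98 (SE 0.203, adjusted p = 0.00336 in limma). The neighbouring E010 had 1.26 (SE 0.173, adjusted p = 0.00455 in limma). The last bin, E013, is 6 bases long and went the other way, with 104, 101, 122 and 116 TruSeq reads against 516, 513, 534 and 528.

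Sirpa, the inhibitory receptor for CD47 on myeloid cells, lies on chromosome 2 from 129418571 to 129457964. Its columns held 20843, 20244, 27260 and 24975 reads with TruSeq reads and 8169, 7570, 14586 and 12301 with NuGENv2 reads. The groups did not overlap, and the log2 fold change was 1.10 (SE 0.16, adjusted p = 0.0025 in limma). The last bin, E011, of 2302 bases and partly coding, accounted for 89.1% of the reads that differed. The short bins E008, E009 and E010, of 25, 40 and 12 bases, differed by -1, -12 and -3 reads. E003, of 91 bases and 74.7% GC, held 68, 46, 150 and 117 TruSeq reads against 133, 111, 215 and 182 NuGENv2 reads (log2 fold change -0.92, SE 0.157, adjusted p = 0.00853 in limma). Sirpa belongs to a family of near-identical genes, so its reads may be shared with relatives.

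Il18rap, the accessory chain of the interleukin-18 receptor on chromosome 1, differed far less. It held 840 to 1599 reads per column with TruSeq reads and 642 to 1401 with NuGENv2 reads, a difference of 198. Its log2 fold change was 0.22 (SE 0.0771, adjusted p = 0.0973 in limma), and 0.00659 was the adjusted p with the replicate block. Bins E006 and E008 passed the test with more TruSeq reads, by 86 and 54. Bins E011 to E015, the 3′ part of the model, were identical in both tables.

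**Figure D2:**
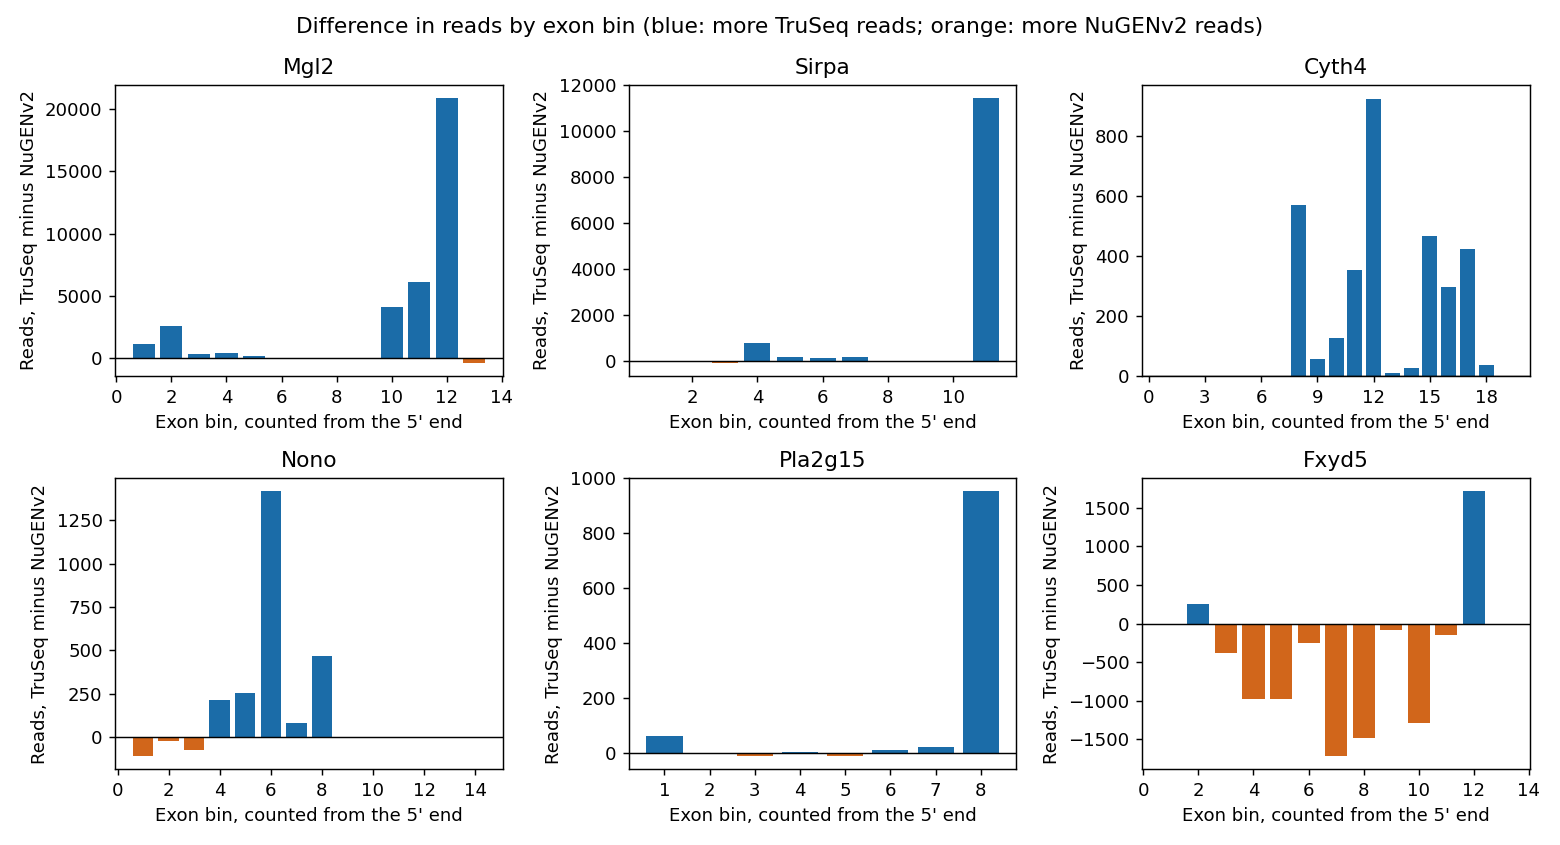
Reads with TruSeq minus reads with NuGENv2 (vertical axis) for each exon bin in order from the 5′ end (horizontal axis) in 6 gene models, the same in all 4 columns. Mgl2, Sirpa and Pla2g15 differ most in a 3′ bin, Cyth4 and Nono have stretches at 0 or within 1 read of it, and Fxyd5 is below 0 in 11 of its 13 bins.

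Fxyd5, a small membrane protein that regulates the sodium pump and cell adhesion, was the one model called higher with NuGENv2 reads. It lies on the minus strand of chromosome 7 from 31817741 to 31827500. Its columns held 15602, 14112, 29400 and 24431 reads with TruSeq reads and 20984, 19494, 34782 and 29813 with NuGENv2 reads. The ranges overlap in reads, since columns differ in depth, but each NuGENv2 column exceeded its TruSeq partner by 5382. The log2 fold change was -0.43 (SE 0.0869, adjusted p = 0.00936 in limma). Scaled to total reads in bins the adjusted p was 0.146. From 40M to 80M source reads NuGENv2 gained 7543 and TruSeq 2293 here, so nearly all of the excess of 5382 arose in that step.

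Most of the NuGENv2 excess in Fxyd5 lay in coding bins of up to 108 bases. E007 held 2021, 1669, 4137 and 3316 TruSeq reads against 3739, 3387, 5855 and 5034 NuGENv2 reads, a log2 fold change of -0.83 (SE 0.123, adjusted p = 0.00479 in limma). E006, of 81 bases, held 1314, 1121, 2836 and 2337 TruSeq reads against 2798, 2605, 4320 and 3821 NuGENv2 reads, a log2 fold change of -0.98 (SE 0.13, adjusted p = 0.00416 in limma). Of its 13 bins 8 were called, all with more NuGENv2 reads. One of them was the model's longest bin, E003, of 2190 bases, by 150 reads (log2 fold change -0.58, adjusted p = 0.0259 in limma). The 2 bins with more TruSeq reads were E012 near the 5′ end, of 361 bases, by 248, and E002 near the 3′ end, of 289 bases, by 1713. Neither passed the test (adjusted p = 0.468 and 0.0653 in limma).

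Kcnn4, a calcium-activated potassium channel on chromosome 7, held 1006 to 1819 reads per column with TruSeq reads and 680 to 1493 with NuGENv2 reads. The difference of 326 reads gave a log2 fold change of 0.35 (SE 0.0803, adjusted p = 0.0155 in limma), and the adjusted p was 0.171, 0.0704 and 0.0999 without column 1, 2 or 4. Its bins E006, E007 and E008, of 111, 119 and 70 bases, had 9, 7 and 15 more NuGENv2 reads, while 4 others were called with more TruSeq reads. Myadm, a membrane protein of myeloid cells, is listed for added reads, yet its 6 usable bins held identical reads in both tables. Its column totals were 3991, 3424, 9373 and 7232 in each.

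Among signalling proteins, Cyth4 was the largest. Cyth4 is a cytohesin, an exchange factor for ARF proteins, on chromosome 15. Its columns held 10929, 9973, 20451 and 17024 reads with TruSeq reads and 7639, 6683, 17161 and 13734 with NuGENv2 reads. The difference of 3290 reads gave a log2 fold change of 0.34 (SE 0.0866, adjusted p = 0.0267 in limma). This call was lost without column 1, 2 or 4, with adjusted p = 0.209, 0.136 and 0.127. All 11 bins that differed, E008 to E018, had more TruSeq reads, and E001 to E007 and E019 were identical. In E012 the log2 fold change was 1.03 (SE 0.144, adjusted p = 0.00455 in limma). The labels list no transcript of Cyth4 for this background.

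Birc3, an inhibitor of apoptosis protein with a close paralog in Birc2, differed by 235 reads, all but 1 of the affected bins toward TruSeq. Its log2 fold change was 0.47 (SE 0.123, adjusted p = 0.0267 in limma), and the adjusted p was 0.209, 0.058 and 0.118 without column 1, 3 or 4. Bins E006 to E013, its 5′ part, were identical. Rhbdd3, a rhomboid-domain membrane protein, differed by 215 reads, with 9 bins toward TruSeq and 0 toward NuGENv2 (log2 fold change 0.81, SE 0.11, adjusted p = 0.0025 in limma; 0.086 when scaled to total reads in bins). Ppp2r3a, a regulatory subunit of protein phosphatase 2A, had 55 more NuGENv2 reads in sum, with 11 bins that way and 5 the other. That is a small part of its 781 to 1076 TruSeq reads per column, and its log2 fold change of -0.16 (SE 0.218) did not pass limma's test (adjusted p = 0.935). With the replicate block and no scaling it was -0.08 (adjusted p = 0.0285).

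Of the enzymes, Pla2g15 changed most. It encodes a lysosomal phospholipase and held 1562, 1535, 2054 and 1887 reads with TruSeq reads against 526, 499, 1018 and 851 with NuGENv2 reads. The groups did not overlap, and the log2 fold change of 1.26 was the largest of the 58 models (SE 0.157, adjusted p = 0.0025 in limma). Its last bin, E008, of 1891 bases, made up 88.7% of the reads that differed. Dhps, the enzyme that starts hypusine formation on eIF5A, differed by 129 reads (log2 fold change 0.29, SE 0.0761, adjusted p = 0.0267 in limma), with adjusted p of 0.215, 0.136 and 0.127 without column 1, 2 or 4. Its bins E002 to E005 had more TruSeq reads, and its 3′ bin E010 held more NuGENv2 reads by 9 (adjusted p = 0.0284 in limma).

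Nono, a nuclear RNA-binding protein of paraspeckles, was the largest of the nuclear proteins. Its columns held 5852, 5435, 9550 and 8261 reads with TruSeq reads and 3617, 3200, 7315 and 6026 with NuGENv2 reads, with a log2 fold change of 0.50 (SE 0.0898, adjusted p = 0.00626 in limma; 0.541 when scaled to total reads in bins and 0.0717 without column 1). Its bins fell into 3 blocks. The first 3, E001 to E003, had 108, 20 and 71 more NuGENv2 reads, and no TruSeq reads were gained there from 40M to 80M source reads. E004 to E008 had more TruSeq reads, by 1415 in E006, and E009 to E014 differed by at most 1 read. Nono has processed pseudogenes, whose share of reads is uncertain here.

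Ccnh, the cyclin of the CDK-activating kinase, differed by 267 reads (log2 fold change 0.62, SE 0.113, adjusted p = 0.00626 in limma; 0.0682 without column 1). All of that lay in E001 to E009, and E010 to E013 were identical. Elp2, a subunit of the Elongator complex, had bins in both directions, 9 with more TruSeq and 14 with more NuGENv2 reads, and a net difference of 222. Its log2 fold change was 0.02 (SE 0.0803, adjusted p = 0.935 in limma), and its sign turned to -0.10 when scaled to total reads in bins. With the replicate block and no scaling it was 0.10 (adjusted p = 0.034). The median length of its bins was 159 bases where TruSeq was higher and 78.5 bases where NuGENv2 was.

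Fbf1, a ciliary transition fibre protein, differed by 598 reads (log2 fold change 1.04, SE 0.148, adjusted p = 0.0025 in limma). Its 9 called bins were all higher with TruSeq reads and lay from E018 to E001 on the minus strand, toward the 3′ end. Toward the 5′ end the direction was mixed. The first 4 bins, E037 to E034, had 11, 6, 4 and 2 more TruSeq reads, while 7 of the 10 bins from E033 to E024 had 3 to 7 more NuGENv2 reads and E025 had 2 more TruSeq reads. The remaining model is that of transcript uc012hbj.1. Of its 11 bins 10 match, in order, the exons of Klhl18, an adaptor of a ubiquitin ligase, on chromosome 9. All 11 bins held more TruSeq reads, by 584 in sum (log2 fold change 0.85, SE 0.173, adjusted p = 0.00936 in limma; 0.0717 without column 1).

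Among single bins, 57 of 805 tested (7.08%) were higher with TruSeq reads and 13 (1.61%) with NuGENv2 reads. The listed models held 195 of the tested bins, 51 of the first and all 13 of the second. The other 6 were in Cyth4. Of the 13, 8 were in Fxyd5, 2 in Nono and 1 each in Mgl2, Sirpa and Dhps. Without column 1 no bin passed limma's test, with 68 and 18 at an unadjusted p under 0.05. The counts were 31 and 5 without column 2 and 36 and 6 without column 4. With the replicate block they were 105 and 693, for the scaling shift given above, and with 1 size factor shared by same-numbered columns they were 67 and 12.

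Bins with more TruSeq reads were longer than bins with more NuGENv2 reads, with medians of 155.5 and 87 bases. Of the differing bins of up to 100 bases, 31 had more TruSeq reads and 40 more NuGENv2 reads, and the net was 2766 reads toward NuGENv2. Above that and up to 150 bases the counts were 30 and 18. Over 150 bases they were 65 and 13, and the net was 40873 reads toward TruSeq. Without Fxyd5 the counts in the shortest class were 31 and 32, and the net there was 2705 reads toward TruSeq. Within models, 13 had bins in both directions, and in 12 of them the TruSeq bins had the longer median, Ccnh being the exception. Some of these medians rest on few bins. In Birc3 and Ccnh the NuGENv2 side was 1 bin that differed by 1 read. It was 2 bins in Pla2g15, and the TruSeq side was 2 bins in Fxyd5. In Dhps the medians were close, at 122 and 116 bases. Median GC content was 54.4% over 104 matched bins with more TruSeq reads and 50.7% over 63 with more NuGENv2 reads, with overlapping ranges from 26.7% to 72.0% and from 28.6% to 78.4%. A long bin also collects more reads, so length and read number cannot be told apart in these sums.

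**Figure D3:**
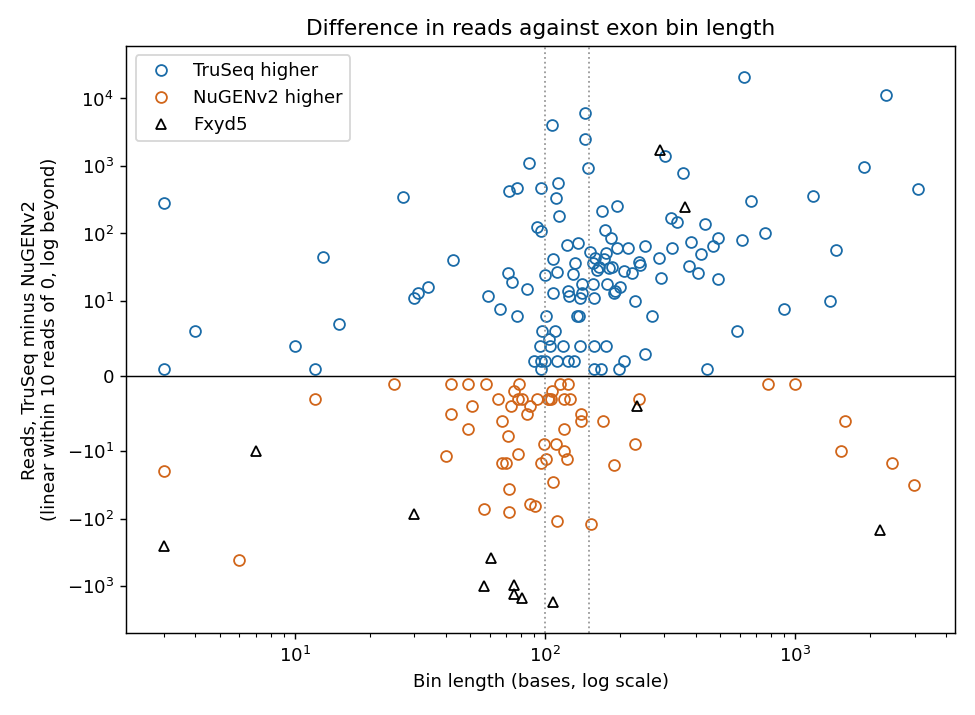
Reads with TruSeq minus reads with NuGENv2 (vertical axis, linear within 10 reads of 0 and log beyond) against bin length (log axis) for the 197 bins that differ, with dotted lines at 100 and 150 bases. Bins over 150 bases are mostly above 0 (65 of 78), and the Fxyd5 bins, drawn as triangles, include the 5 lowest values.

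The same 2 libraries can be compared apart from the background by the reads gained when the source grew from 40M to 80M reads. These gained reads are part of the 80M reads compared above, so they are no separate evidence. The TruSeq tables gained 40021 reads over 177 bins and the NuGENv2 ones gained 17743 over 154, and no bin fell. TruSeq thus took 69.3% of the joint gain (95% exact binomial interval 68.9% to 69.7%, counting error only). Without the bin of each model with the most gained reads this share was 57.7%. Of 16 models with gains, 14 gained more TruSeq reads, with a median ratio of 3.38 over all 16. Ppp2r3a gained 303 and 304 reads, a TruSeq share of 49.9% (45.9% to 54.0%). Fxyd5 gained 2293 and 7543, a TruSeq share of 23.3% (22.5% to 24.2%).

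The TruSeq share of the gain differed between models, with intervals that did not overlap for Nono, Mgl2 and Elp2. A read counts once in each bin it spans, so these intervals are too narrow even for counting error. Their lack of overlap is therefore no test of a difference between models. It was 90.9% (85.2% to 94.9%) in Rhbdd3 and 90.4% (88.8% to 91.9%) in Nono. In Mgl2 it was 78.5% (78.0% to 78.9%), with 23585 reads against 6477, and in Sirpa 81.0% (80.2% to 81.7%). In Elp2 it was 58.2% (54.9% to 61.4%), and in Il18rap 60.7% (55.1% to 66.1%). The intervals of Birc3 (49.0% to 59.8%) and Dhps (49.5% to 67.0%) include equal shares.

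**Figure D4:**
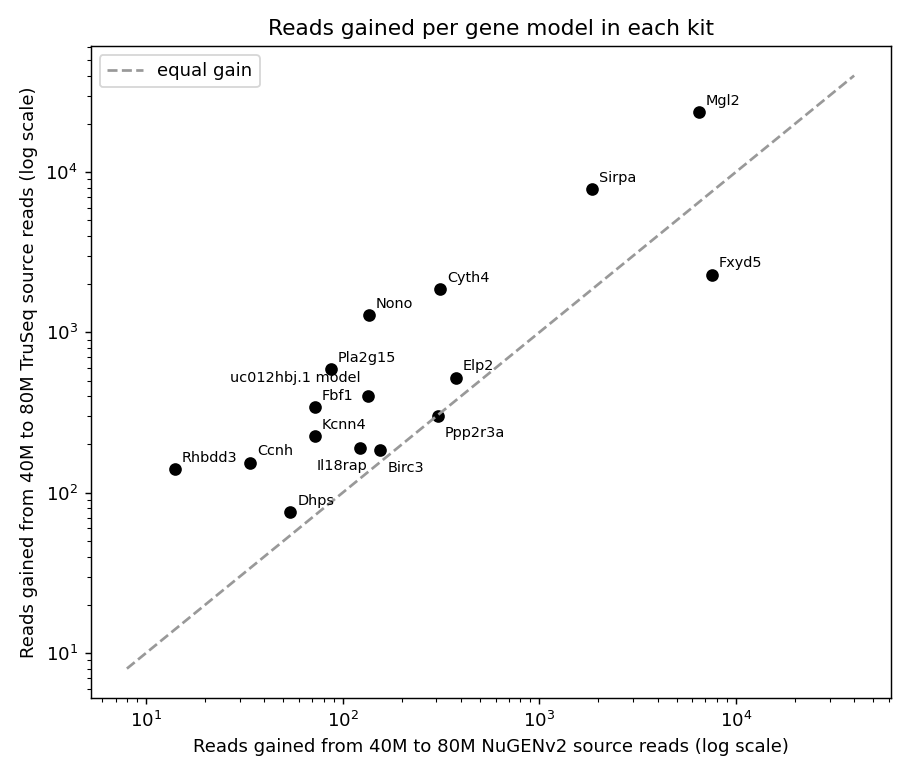
Reads gained per gene model from 40M to 80M source reads, NuGENv2 on the horizontal and TruSeq on the vertical axis (both log), 1 point per model and a dashed line at equal gain. Fxyd5 lies far below the line at 7543 and 2293 reads, Ppp2r3a lies on it, and 14 models lie above.

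The NuGENv2 source can also be followed from 20M reads upward. It added 6075 reads from 20M to 40M and 17743 from 40M to 80M, a ratio of 2.92 between a step of 40M and one of 20M source reads. Fxyd5 added 1156 and then 7543, a ratio of 6.53, and the other models together had 2.07. Birc3 added 6 and then 155 reads, and Dhps 0 and then 54, while Mgl2 added 3388 and 6477. In 22 bins the TruSeq table at 80M held fewer reads than the NuGENv2 table at 20M. Of these 5 were in Fxyd5, where E009 fell short by 158 reads and E010 by 138, and another was Mgl2 E013, by 108.

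Reads gained in short bins took a larger share of the NuGENv2 gain than of the TruSeq gain in 8 of the 10 models with at least 100 gained reads in each kit. In Birc3, Ppp2r3a and Il18rap this rested on bins that gained at most 3 reads each. The NuGENv2 shares there were 0.645%, 0.658% and 2.44%, against 0, 0 and 2.11% with TruSeq. The count of 8 therefore overstates how general the difference was. In Fxyd5 bins of up to 100 bases took 61.3% of the NuGENv2 gain and 12.8% of the TruSeq gain, against 10.9% of the model's length. In Mgl2 they took 11.2% and 5.08%, and in Sirpa 3.52% and 0.115%. Cyth4 went the other way, with 15.1% and 37.9%. In the uc012hbj.1 model the shares were 0.741% and 0.748%.

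**Figure D5:**
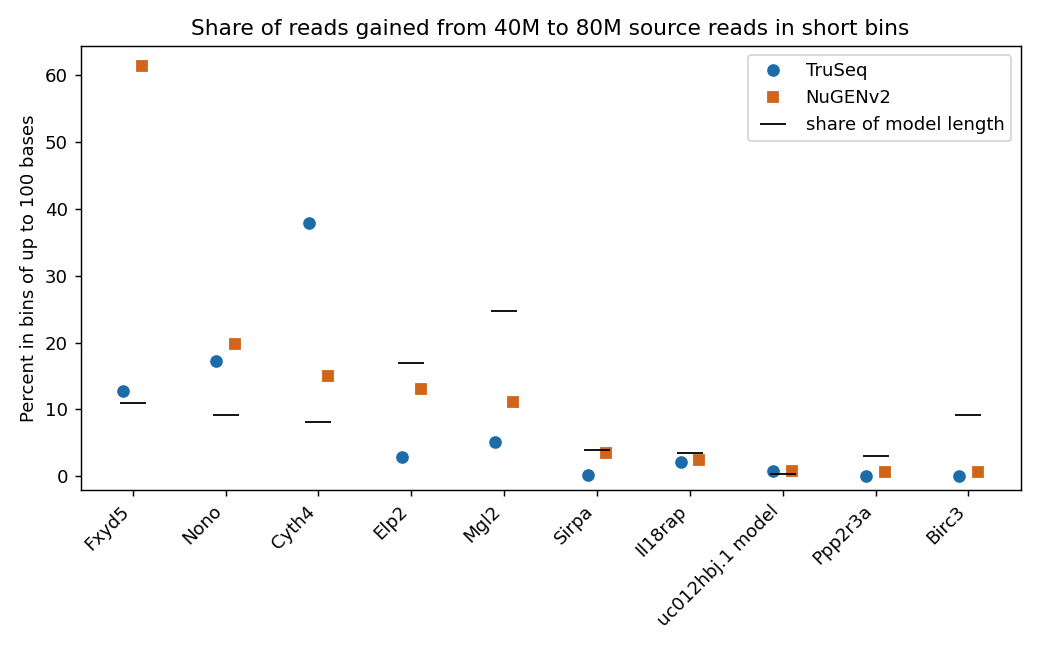
Percent of the reads gained from 40M to 80M source reads that lay in bins of up to 100 bases (vertical axis), for TruSeq (circles) and NuGENv2 (squares) in 10 gene models, with a dash at those bins' share of the model's length. Fxyd5 shows the widest gap, at 12.8% and 61.3%, and Cyth4 the widest in the other direction.

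No common shift toward an end of the transcripts was seen. The mean place of gained reads, from 0 at the 5′ end to 1 at the 3′ end, was nearer the 3′ end with NuGENv2 in 6 of 10 models and with TruSeq in 4. With reads per base as the weight it was 5 and 5. By reads, the largest shift was in Fxyd5, from 0.672 with TruSeq to 0.327 with NuGENv2, followed by Nono, from 0.250 to 0.138. With reads per base the order changed, with NuGENv2 minus TruSeq at 0.239 in Mgl2, -0.233 in Nono, -0.153 in Il18rap and -0.111 in Fxyd5. In Mgl2 the places were 0.658 and 0.664 by reads, but 0.411 and 0.649 with reads per base as the weight. In Elp2 they were 0.741 and 0.744 by reads. In Birc3 they were 0.775 and 0.828, where the 3′ bin E001 took 45.9% of the TruSeq gain and 63.2% of the NuGENv2 gain.

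The 2 kits were also set against each other on the 1000 ng background, where a different list of transcripts was added. There 58 bins held more TruSeq reads and 57 more NuGENv2 reads. Of differing bins up to 100 bases, 17 had more TruSeq and 35 more NuGENv2 reads, and over 150 bases 30 and 10. Between these the counts were 11 and 12, with a net of 1329 reads toward NuGENv2, against a net of 13198 toward TruSeq on the 100 ng background. Fxyd5, listed for both, again had more NuGENv2 reads, by 2195, in 10 of 13 bins, and E007 differed by 1718 reads on both backgrounds. Other Fxyd5 bins changed sign (TruSeq minus NuGENv2). E004 turned from -1295 reads on the 100 ng background to 428 on the 1000 ng one. E003 turned from -150 to 284, and E012 from 248 to -90. Of the 23 Elp2 bins that differed on both, 15 differed by the same number of reads. The 2 backgrounds thus share equal differences, and the second is no independent repeat. Cyth4 differed by 1133 reads there, with 7 bins toward NuGENv2, against 0 such bins here. Myadm, identical here, had 2158 more TruSeq reads there.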

How the data were processed

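Reads of D1 cells were placed by the authors into exon bins. STAR, Cuffdiff and mm9 are named in the submitters' processing notes, without versions or parameters, and the counting step was not stated. Values were deposited as a coverage signal. Each value was multiplied by the smallest divisor that made every used column whole within 0.001, so whole reads follow by construction. The bin length was taken as this divisor plus 1 base, and without a match to annotation it rests on the divisor alone. In 52 models with annotation this length matched an exon part of GENCODE vM1 for 620 of 763 bins. In all, 30 columns of per-sample values were not used.

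Reads were scaled by median-of-ratios size factors (bins without a 0 in the 8 columns) and tested as log2(scaled reads + 1) with limma 3.58.1 (R 4.3.3; lmFit, eBayes, two-sided, Benjamini-Hochberg over all bins or models, threshold 0.05). Bins needed a mean of 10 reads. These fold changes understate the change of low values. Tested on simulated data over 806 bins, 83.8% of 2-fold and 100% of 4-fold changes were recovered, with 3.24% of calls false. The simulated columns were drawn independently, without the shared background and equal added reads of the real ones. These rates therefore do not describe the calls made here. Same-numbered columns pair through their shared background, with correlations of deviations from 0.974 to 0.987. Binomial intervals and read totals count a read once for each bin it spans. The intervals are therefore too narrow even for counting error, the only error they cover. Python 3.11.15, pandas 2.3.3 and scipy 1.17.1 were used.

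Named models are those with a transcript listed for kit reads in the 100 ng samples, plus any other model with a bin that differs. Up to 10 bins per direction were named by size of difference, and other bins were named after their values were seen. Members and lists were chosen with earlier results of these data known. Alternatives covered scaling, pseudocount, filter, trend, replicate block and each column left out. A shared size factor and a block without scaling were added after seeing the data.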

Additional observations from a re-analysis of the deposited data

Results flagged for a closer look

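Of 34 groups of 4 columns (17 models, 2 kits), 3 had a column far from the other 3 in scaled reads, where chance flags about 1 in 20 groups. Fbf1 with NuGENv2 reads held 563 scaled reads in column 2, above the rest. Fxyd5 with TruSeq reads held 18684 in column 4, below the rest. Il18rap with TruSeq reads held 1166 in column 2, above the rest. Ppp2r3a had opposite signs on the 2 backgrounds, with TruSeq minus NuGENv2 at -55 reads in each column with the 100 ng background and 7 with the 1000 ng background, and that difference was not tested.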

How the results depend on the processing

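The bin counts of 57 and 13 (higher with TruSeq, higher with NuGENv2) were 8 and 1 with no scaling, 27 and 4 when scaled to total reads in bins, 105 and 693 with the replicate block, and 15 and 6 with the replicate block and no scaling. Leaving out 1 column gave 0 to 46 and 0 to 10. The model counts of 12 and 1 were 0 and 0 with no scaling, 5 and 0 when scaled to total reads, 13 and 44 with the replicate block, and 14 and 2 with the block and no scaling. Leaving out 1 column gave 4 to 11 and 0 to 1. The median log2 fold change of the listed models, 0.48, was 0.36 when scaled to total reads and 0.43 to 0.54 with 1 column left out. The TruSeq share of the gain, 69.3%, was 57.7% without the bin of each model with the most gained reads. With a pseudocount of 10, no filter, limma trend or a shared size factor, counts moved by less than 1.5 times. Scaling to total reads moves the median of all models to -0.20. For the block, identical bins kept a constant shift from scaling; the cause of the other changes was not tested. Of the 13 model calls 8 were lost when scaled to total reads and all 13 with no scaling. The planned count models were not run, because the deposited signal is not a count table. Bins under 10 reads were not tested, and with 1 set of added reads per kit no spread between libraries can be had.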
